A study of Mus musculus with 10 samples.

Results

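Transcripts of the nuclear genes for respiratory complexes II to V and for cytochrome c were compared in aortas of NPAS2 mutant and Wild Type mice. The members were all genes whose single platform symbol was Sdha, Sdhb, Sdhc, Sdhd, Cyc1 or Cycs, or began with Uqcr, Atp5 or Cox followed by 4 to 8. For each gene the probe set with the highest mean over all 10 arrays was taken, which gave 48 genes of the 18193 genes with a probe set of 1 symbol. These were 4 genes of complex II, 9 of complex III, Cycs, 10 widely expressed genes of complex IV, 7 tissue isoforms of complex IV and 17 genes of complex V. A probe set entered the test if it lay above the median of its own array on at least 5 of the 10 arrays, and 45 of the 48 members did. Subunits encoded in mitochondrial DNA are outside this choice.

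The arrays held RNA of the aorta of male mice that were NPAS2 mutant on a C57Bl/6J background (5 arrays, F12, F13, F18, F19 and F20) or Wild Type with the strain C57Bl/6 (5 arrays, F11, F14_2, F15, F16 and F17). Both groups spent at least 2 weeks in 12 h of light and 12 h of dark, then at least 30 h in constant darkness, and were killed at ZT14. The labels do not state what the NPAS2 mutation is, nor that each array holds a separate mouse, so p values measure the spread between arrays, and mutation and substrain cannot be told apart. The piece of vessel is described both as thoracic and as reaching from the arch to below the femoral branch point.

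The respiratory chain of the inner mitochondrial membrane passes electrons from succinate, through complex II, and from other fuels to ubiquinone, then through complex III and cytochrome c to complex IV, which reduces oxygen. The proton gradient that complexes III and IV help to build drives complex V, the ATP synthase. Several complex IV subunits have tissue isoforms: Cox7a1 and Cox8b in muscle and brown fat, Cox6a2 in heart and skeletal muscle, Cox4i2 in lung, and Cox6b2, Cox7b2 and Cox8c in testis. Brown fat, a heat-producing tissue rich in mitochondria, lies along part of the aorta.

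Promoter sequences were examined because the members had like deviations from array to array. RefSeq windows of GRCm38.p6, from 250 bases before a gene's start to 50 after it, matched 36 of the 48 members in 39 windows. The letters CCGGAAG, bound by ETS factors such as GABP, lay on either strand in 13 of the 39 windows (33.3%), against 8.86% of all 32851 windows. An NRF1 motif (GCGCA, any base, then GCGC) lay in 10 (25.6%), against 4.60% of all windows. The ERR letters AAGGTCA lay in 5 (12.8%), against 4.72%. The E-box CACGTG, the letters that NPAS2 with its partner BMAL1 is known to bind, lay in 4 (10.3%), against 7.15%. A match is a description of letters and not of binding. Of the 36 genes, 10 held NRF1 and 13 ETS letters, so lacking both was not particular to tissue isoforms. The 250 bases upstream of the start are shown 5′ to 3′ on the gene's strand, with NRF1 and ETS letters in capitals. The examples are 3 widely expressed members that hold such letters and the tissue isoforms Cox7a1 and Cox8b, which hold neither. They lie at chr9:50603850-50604099 (Sdhd, minus strand), chr5:108434400-108434649 (Atp5k, minus), chr5:115348959-115349208 (Cox6a1, minus), chr7:30183921-30184170 (Cox7a1, plus) and chr7:140900447-140900696 (Cox8b, minus).
Sdhd: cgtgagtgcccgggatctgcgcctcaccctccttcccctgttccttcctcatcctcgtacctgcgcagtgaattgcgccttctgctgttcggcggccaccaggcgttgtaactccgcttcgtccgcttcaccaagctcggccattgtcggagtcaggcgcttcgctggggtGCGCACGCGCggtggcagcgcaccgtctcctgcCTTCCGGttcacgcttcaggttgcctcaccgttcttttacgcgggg
Atp5k: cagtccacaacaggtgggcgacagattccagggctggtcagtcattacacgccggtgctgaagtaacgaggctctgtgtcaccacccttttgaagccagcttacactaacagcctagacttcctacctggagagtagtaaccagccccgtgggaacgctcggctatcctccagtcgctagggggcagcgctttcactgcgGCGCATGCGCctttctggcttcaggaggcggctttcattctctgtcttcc
Cox6a1: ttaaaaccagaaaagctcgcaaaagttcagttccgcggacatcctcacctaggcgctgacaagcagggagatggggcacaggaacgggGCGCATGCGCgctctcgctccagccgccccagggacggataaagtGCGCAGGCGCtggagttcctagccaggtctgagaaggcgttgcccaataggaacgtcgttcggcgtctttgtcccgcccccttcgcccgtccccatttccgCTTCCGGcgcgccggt
Cox7a1: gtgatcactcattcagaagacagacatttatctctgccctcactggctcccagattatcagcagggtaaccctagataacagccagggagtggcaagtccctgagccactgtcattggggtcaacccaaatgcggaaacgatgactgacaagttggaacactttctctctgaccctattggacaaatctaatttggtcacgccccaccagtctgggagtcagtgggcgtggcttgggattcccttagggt
Cox8b: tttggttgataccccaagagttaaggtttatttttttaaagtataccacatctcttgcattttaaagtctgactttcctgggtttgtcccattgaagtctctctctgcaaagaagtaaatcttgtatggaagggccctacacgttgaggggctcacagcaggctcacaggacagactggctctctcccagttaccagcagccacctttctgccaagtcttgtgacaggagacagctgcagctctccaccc
The NRF1 letters began 79 bases before the start in Sdhd, 50 in Atp5k, and 162 and 117 in Cox6a1. ETS letters on the opposite strand began 46 bases before the start in Sdhd and 16 in Cox6a1. The whole windows also held ETS letters in Atp5k and ERR letters in Sdhd and Atp5k, which do not lie within the 250 bases shown.

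All values below are log2 levels as deposited, and a change is the mutant mean minus the Wild Type mean on that scale. Array values lay between 1.10 and 14.71, and pairs of arrays correlated at 0.988 to 0.996 within groups and 0.986 to 0.996 between groups. Of the 2 Npas2 probe sets, the brighter had levels of 3.38 to 3.47 on the mutant arrays and 3.44 to 3.96 on the Wild Type arrays, a change of -0.28 (limma adjusted p = 0.249), and the other was too dim to test. As the labels do not place the mutation, these probe sets do not check the genotype. Smooth muscle genes marked the vessel wall, with Acta2 at 14.38 ± 0.060 and 14.42 ± 0.096 (mutant and Wild Type, SD, n = 5 each). Among 5 endothelial genes, Pecam1 was the brightest, at 7.72 in mutants and 8.05 in Wild Type on average, and Kdr the dimmest, at 3.35 in mutants and 3.17 in Wild Type. Of 22340 tested probe sets 48 passed the threshold, a Benjamini-Hochberg adjusted p below 0.05 in limma.

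None of the 45 tested members passed that threshold, against 0.215% of all tested probe sets. The lowest adjusted p was 0.140, for Cycs. The members leaned to one side: the mean was higher in the mutant for 42 and lower for 3, against 42.4% higher among all tested probe sets and 43.8% among the 1003 with a mean level of at least 10. The unadjusted limma p was below 0.05 with a higher mutant mean in 22 members, against 4.75% of all tested probe sets and 12.6% of the bright ones. It was below 0.05 with a lower mutant mean in 1 member, against 10.6%. The median change was 0.24 for the members, -0.028 for all tested probe sets and -0.024 for the bright ones. Only Atp5pb and Atp5k had all 5 mutant arrays above all 5 Wild Type arrays, which is 2 of 45, against 1.5% of all tested probe sets and 2.59% of the bright ones.

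**Figure D1:**
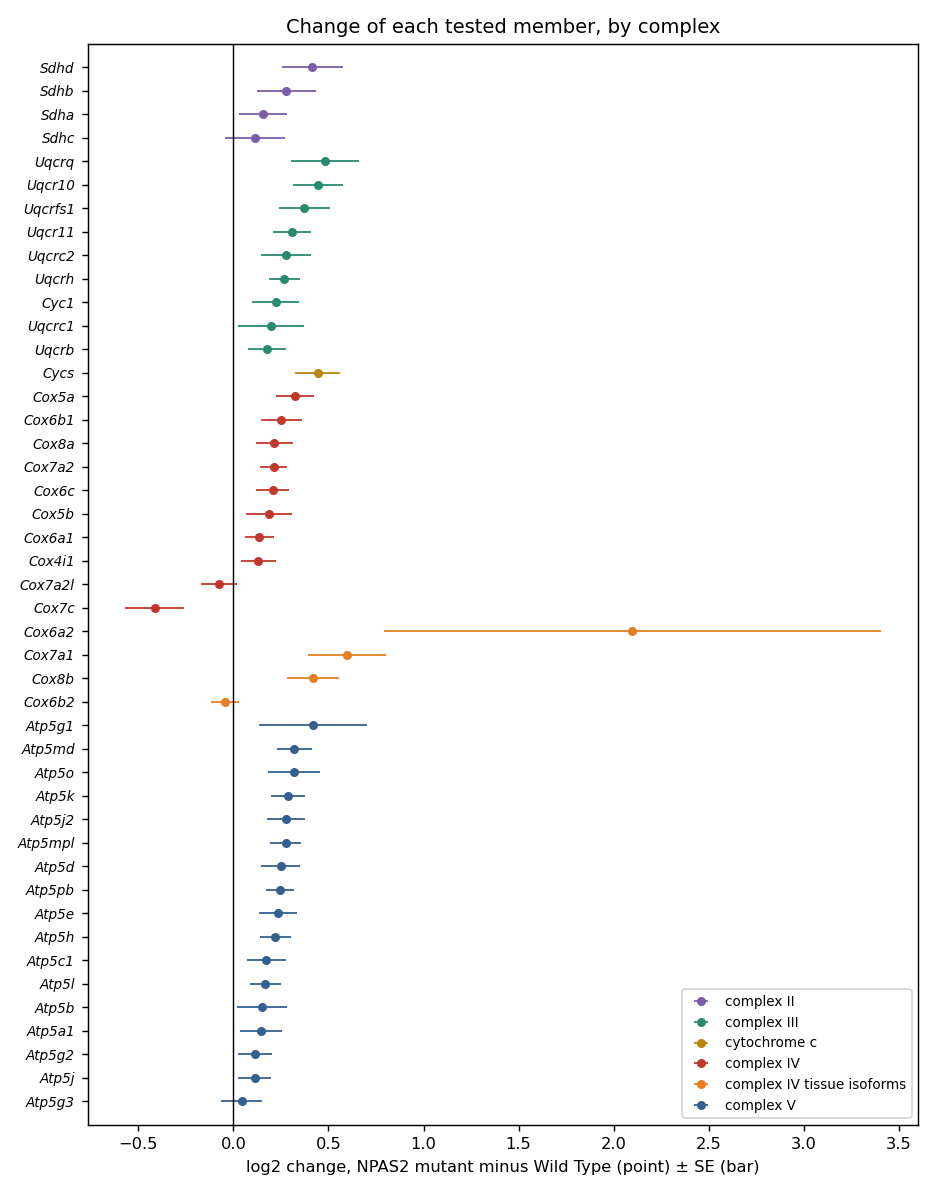
Log2 change of each of the 45 tested members (mutant minus Wild Type, point) with its standard error (bar), ordered by complex and coloured by it, with 5 arrays per group. Of the points 42 lie right of 0; Cox7c, at -0.41, lies furthest left and Cox6a2, at 2.10 with the widest bar, furthest right.

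Complex II oxidises succinate in the citric acid cycle and hands its electrons to ubiquinone. The mean of all 4 genes was higher in the mutant, by a median of 0.22. An unadjusted p below 0.05 was found in 1 gene, against 4.75% of all tested probe sets in that direction and 12.6% of the bright ones. With 4 genes, a count of 1 is not read as a result about the complex. Sdhd, a membrane anchor, measured 9.92, 9.81, 9.23, 9.39 and 9.49 on the mutant arrays F12, F13, F18, F19 and F20, and 9.24, 9.51, 9.18, 9.06 and 8.77 on the Wild Type arrays F11, F14_2, F15, F16 and F17. The groups overlapped: only F12 and F13 exceeded the highest Wild Type array, F14_2, and F17 was lowest of all. The change was 0.41 ± 0.16 (SE, adjusted p = 0.255 in limma), a ratio of 1.33. Sdhb, the iron-sulfur subunit, averaged 11.78 ± 0.31 in mutants and 11.50 ± 0.22 in Wild Type (SD, n = 5 each; change 0.28, adjusted p = 0.399). Sdha, the flavin-bearing catalytic subunit, averaged 11.02 ± 0.24 in mutants and 10.87 ± 0.19 in Wild Type, and its change of 0.16 had a 95% interval of -0.12 to 0.43 and was 0.089 without F12 and 0.093 without F17. Sdhc, the other anchor, had the smallest change of the complex, 0.11, with an interval of -0.24 to 0.47, and it ran from 0.014 (without F17) to 0.20 (without F19) as single arrays were left out, with 0.035 without F12, 0.054 without F13, 0.18 without F18 and 0.20 without F14_2.

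Complex III takes electrons from ubiquinol and reduces cytochrome c. The mean of all 9 genes was higher in the mutant, by a median of 0.28. An unadjusted p below 0.05 was found in 5 genes, against 4.75% of all tested probe sets in that direction and 12.6% of the bright ones. The changes ran from 0.18 (Uqcrb) to 0.48 (Uqcrq). Uqcrq, a small subunit that binds near cytochrome b, measured 11.26, 11.11, 10.58, 10.68 and 10.90 on the mutant arrays, and 10.62, 10.74, 10.50, 10.41 and 9.85 on the Wild Type arrays, in the array order given above. Mutant F18 and F19 lay within the Wild Type range, and Wild Type F17 was far below the rest. The change was 0.48 ± 0.18 (SE, adjusted p = 0.242).

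Uqcr10, a small accessory subunit, measured 9.73, 9.59, 9.16, 9.28 and 9.34 on the mutant arrays and 9.10, 9.24, 8.99, 8.91 and 8.65 on the Wild Type arrays. Only mutant F18 fell under the highest Wild Type array, F14_2. The change was 0.44 ± 0.13 (SE, adjusted p = 0.174). A dimmer Uqcr10 probe set that was not the chosen one averaged 6.60 in mutants and 5.81 in Wild Type, and its adjusted p of 0.121 was the lowest among all 78 tested probe sets of the member genes. Uqcrfs1, the Rieske iron-sulfur protein, averaged 11.23 ± 0.26 and 10.85 ± 0.20 (mutant and Wild Type, SD, n = 5 each), which is a change of 0.37 (adjusted p = 0.231). Cyc1, the cytochrome c1 that passes the electron on, averaged 11.90 ± 0.20 in mutants and 11.68 ± 0.23 in Wild Type, which is a change of 0.22 (adjusted p = 0.404). Uqcrb, with 13.69 ± 0.20 in mutants and 13.51 ± 0.13 in Wild Type, had the smallest change of the complex.

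Cycs encodes somatic cytochrome c, the soluble carrier between complexes III and IV. It measured 12.46, 12.37, 12.14, 12.22 and 12.55 on the mutant arrays and 11.96, 12.24, 11.85, 11.88 and 11.60 on the Wild Type arrays. All 5 mutant arrays exceeded the Wild Type mean of 11.91, but F18 and F19 did not exceed Wild Type F14_2. The change was 0.44 ± 0.12 (SE), a ratio of 1.36, with an unadjusted p of 0.00332 and an adjusted p of 0.140 in limma. The other 2 tested Cycs probe sets gave changes of 0.41 and 0.46.

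Complex IV, cytochrome c oxidase, had 10 widely expressed members, of which 8 were higher on average in the mutant. Of these 4 had an unadjusted p below 0.05, against 4.75% of all tested probe sets in that direction and 12.6% of the bright ones. The median change over the 10 was 0.20. Cox5a, a matrix-side subunit, had the largest positive change of these genes, 0.32 ± 0.10 (SE, adjusted p = 0.182). Cox7a2 measured 12.46, 12.40, 12.21, 12.27 and 12.44 on the mutant arrays and 12.14, 12.27, 12.17, 12.12 and 12.02 on the Wild Type arrays. Only mutant F18 lay below the highest Wild Type array, F14_2, and the change was 0.21 ± 0.070 (SE, adjusted p = 0.200). Cox4i1, a core regulatory subunit, averaged 12.88 ± 0.16 in mutants and 12.75 ± 0.13 in Wild Type (SD, n = 5 each), a change of 0.13 with a 95% interval of -0.072 to 0.33, and 0.077 without F12. Cox6a1 and Cox8a had changes of 0.14 and 0.22, with adjusted p of 0.394 and 0.329.

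Cox7c and Cox7a2l, singled out after their values were seen, were the widely expressed complex IV genes with a lower mutant mean. The chosen Cox7c probe set was dim, with 3.46, 3.97, 3.96, 3.54 and 3.68 on the mutant arrays and 4.42, 3.90, 4.24, 3.74 and 4.38 on the Wild Type arrays. The groups overlapped, Wild Type F14_2 and F16 lying within the mutant range, and the change was -0.41 ± 0.15 (SE, unadjusted p = 0.0216, adjusted p = 0.245). The median over all probe sets was between 3.13 and 3.20 on each array, so this probe set stood little above it, and whether it reads the Cox7c transcript was not tested. Cox7a2l, which takes part in joining complexes III and IV into supercomplexes, averaged 9.66 ± 0.15 in mutants and 9.74 ± 0.16 in Wild Type, a change of -0.073. Its 3 tested probe sets did not share a sign, as one of them had a change of 0.12.

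The tissue isoforms of complex IV were 7 genes, of which Cox4i2, Cox7b2 and Cox8c lay below the median of their arrays and were not tested. Cox7a1, the muscle and brown fat form, measured 11.53, 11.39, 10.86, 10.78 and 11.26 on the mutant arrays and 10.79, 11.11, 10.45, 10.44 and 10.06 on the Wild Type arrays. F12, F13 and F20 exceeded every Wild Type array, while F18 and F19 lay below F14_2. The change was 0.60 ± 0.20 (SE), a ratio of 1.51, with an adjusted p of 0.215.

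Cox8b, present in the same tissues, measured 12.79, 12.75, 12.28, 12.34 and 12.50 on the mutant arrays and 12.15, 12.50, 12.02, 12.08 and 11.82 on the Wild Type arrays. Again F18 and F19 lay below Wild Type F14_2, and F17 was lowest. The change was 0.42 ± 0.14 (SE, adjusted p = 0.200). Cox6b2, the testis form, was at 4.82 ± 0.13 in mutants and 4.86 ± 0.081 in Wild Type (SD, n = 5 each), a change of -0.043 that ran from -0.10 (without F13) to -0.018 (without F19) as single arrays were left out, with -0.026 without F12, -0.029 without F18, -0.073 without F11 and -0.020 without F16. Cox4i2, the lung form, was at 2.33 to 2.36 on the mutant arrays and 2.31 to 2.46 on the Wild Type arrays.

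Cox6a2, the striated muscle form, measured 9.15, 2.32, 2.42, 6.42 and 7.22 on the mutant arrays and 2.29, 3.81, 2.92, 5.80 and 2.22 on the Wild Type arrays. It was high on mutant F12, F19 and F20 and on Wild Type F16, and it lay below the array's median on the 5 arrays F13, F18, F11, F15 and F17. The change of 2.10 ± 1.31 (SE) had a 95% interval of -0.78 to 4.98 and an adjusted p of 0.451, and it was 1.19 without F12. The mean level of 12 skeletal muscle markers moved with it: 10.67, 3.53, 3.33, 8.66 and 9.44 on the mutant arrays and 3.24, 6.01, 5.37, 9.61 and 3.30 on the Wild Type arrays. With that mean as a covariate in limma the Cox6a2 change was 0.87 ± 0.34 (SE). The unadjusted limma p was 0.0282 with the covariate and 0.137 without it, and the adjusted p with it was 0.329.

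Whether a tissue isoform differed more than its widely expressed partner was asked within each array, for 3 pairs, with exact two-sided permutation tests over the 252 splits of 5 against 5 arrays (smallest possible p = 0.00794), adjusted over the 3 pairs. Cox8b minus Cox8a was 2.61 ± 0.11 in mutants and 2.41 ± 0.092 in Wild Type (SD, n = 5 each), a difference of 0.20 with an exact p of 0.0159 and an adjusted p of 0.0476. The single arrays overlapped, since mutant F19, at 2.46, lay below Wild Type F14_2, at 2.54. This call was lost when the probe sets of a gene were averaged, after quantile normalisation, and without any 1 of 8 arrays, F19 and F14_2 being the exceptions. Cox7a1 minus Cox7a2 differed by 0.38 (exact permutation p = 0.0714, adjusted 0.107), and without F14_2 by 0.49 with an adjusted p of 0.0476. Cox6a2 minus Cox6a1 differed by 1.96 (exact permutation p = 0.254, adjusted 0.254). Cox4i2 was too dim for its pair.

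**Figure D2:**
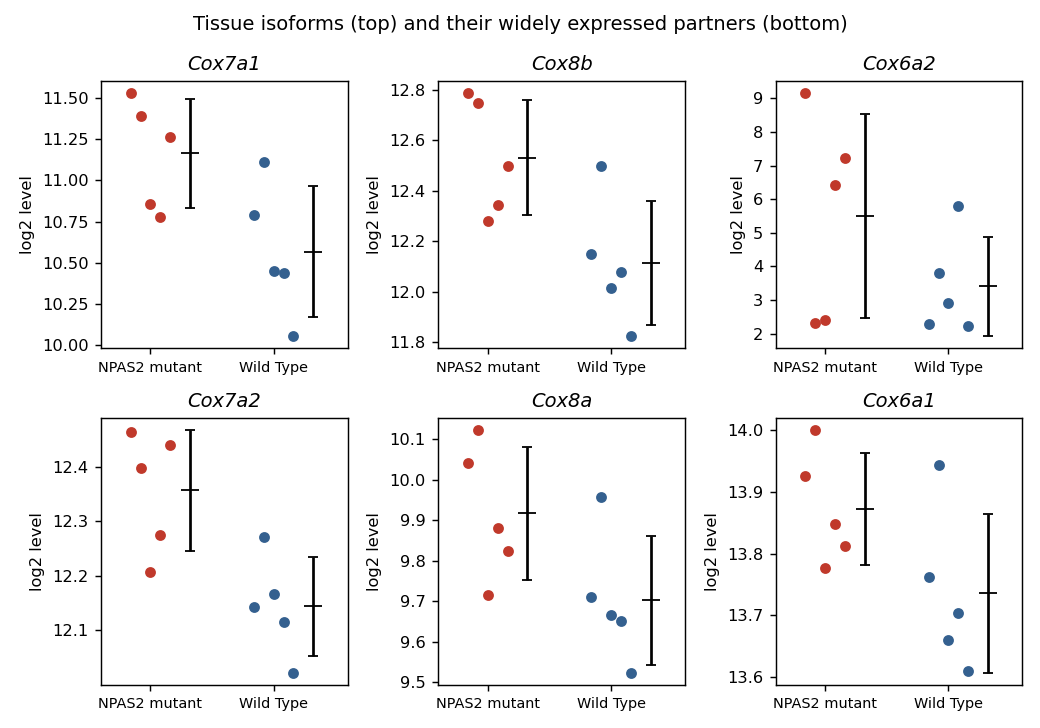
Log2 level of each tissue isoform (top) and its widely expressed partner (bottom) on the 5 mutant and 5 Wild Type arrays; points are arrays, in the order F12, F13, F18, F19, F20 and F11, F14_2, F15, F16, F17, and the bars are mean ± SD. The axes differ between panels; Cox6a2 spans 2.22 to 9.15, and in every panel at least 1 mutant array lies within the Wild Type range.

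Complex V, the ATP synthase, joins a catalytic head that makes ATP to a proton-driven rotor in the membrane. The mean of all 17 genes was higher in the mutant, by 0.043 (Atp5g3) to 0.42 (Atp5g1), with a median of 0.24. An unadjusted p below 0.05 was found in 9, against 4.75% of all tested probe sets in that direction and 12.6% of the bright ones. The subunits of the catalytic head, Atp5a1 (alpha) and Atp5b (beta), had changes of 0.14 and 0.15, with 95% intervals of -0.10 to 0.38 and -0.14 to 0.44. Without F12 the changes were 0.080 for Atp5a1 and 0.087 for Atp5b, and Atp5b was at 0.097 without F17 and 0.24 without F14_2. Atp5o, in the stalk that holds the head still, averaged 11.20 ± 0.27 in mutants and 10.88 ± 0.19 in Wild Type (SD, n = 5 each), which is a change of 0.32 (adjusted p = 0.295).

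Atp5md, a small membrane subunit that takes part in pairing of the synthase, measured 11.22, 11.18, 10.80, 10.89 and 11.14 on the mutant arrays and 10.81, 10.79, 10.68, 10.79 and 10.56 on the Wild Type arrays. Only F18 fell under the highest Wild Type array, here F11, and by a small margin. The change was 0.32 ± 0.093 (SE, adjusted p = 0.168), the lowest adjusted p of the complex.

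Atp5pb and Atp5k, the genes whose groups did not overlap, were singled out after their values were seen. Atp5pb, the stalk subunit b, measured 12.40, 12.18, 12.11, 12.02 and 12.16 on the mutant arrays and 11.98, 12.02, 11.94, 11.85 and 11.86 on the Wild Type arrays. F19 and F14_2 were equal to 2 decimals there, and the change was 0.24 ± 0.074 (SE, adjusted p = 0.178). Atp5k, the membrane subunit e whose upstream sequence is shown above, measured 10.98, 10.86, 10.64, 10.60 and 10.81 on the mutant arrays and 10.50, 10.59, 10.60, 10.50 and 10.27 on the Wild Type arrays. F19 and F15 again met to 2 decimals, and the change was 0.29 ± 0.090 (SE, adjusted p = 0.184).

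The rotor ring subunit c is made from Atp5g1, Atp5g2 and Atp5g3, which encode the same mature protein. Atp5g1 measured 9.27, 7.51, 7.67, 8.18 and 8.38 on the mutant arrays and 7.92, 7.48, 7.76, 8.03 and 7.76 on the Wild Type arrays. F12 stood far above all others, and F13 and F18 lay below the Wild Type mean. The change of 0.42 ± 0.28 (SE, adjusted p = 0.490) was 0.15 without F12. The mutant arrays with high Atp5g1, F12, F19 and F20, were those with high skeletal muscle markers, and with the mean of those markers as a covariate the Atp5g1 change was 0.22 ± 0.21 (SE). Atp5g3 averaged 11.64 ± 0.25 in mutants and 11.60 ± 0.061 in Wild Type, and its change of 0.043 was -0.063 without F12, 0.092 without F13, 0.081 without F18, 0.065 without F19 and 0.024 without F11.

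The members moved together from array to array. F12 was highest of the 10 arrays in 36 of 45 members and F13 in 6, and F17 was lowest in 34. Within the mutants F18 was lowest in 31 members, and within the Wild Type F14_2 was highest in 38. The median deviation of the members from their 10-array means was 0.34, 0.24, -0.084, -0.0025 and 0.12 on the mutant arrays, and -0.092, 0.11, -0.14, -0.17 and -0.29 on the Wild Type arrays, so F14_2 lay above F18 and F19. Without F14_2, 18 of 45 members had all mutant arrays above all Wild Type arrays, against 2.82% of all tested probe sets, and without F18 the count was 8, against 2.30%. Leaving out any other array gave 2 or 3 members, against 1.83% (without F20) to 3.60% (without F13) of all tested probe sets.

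**Figure D3:**
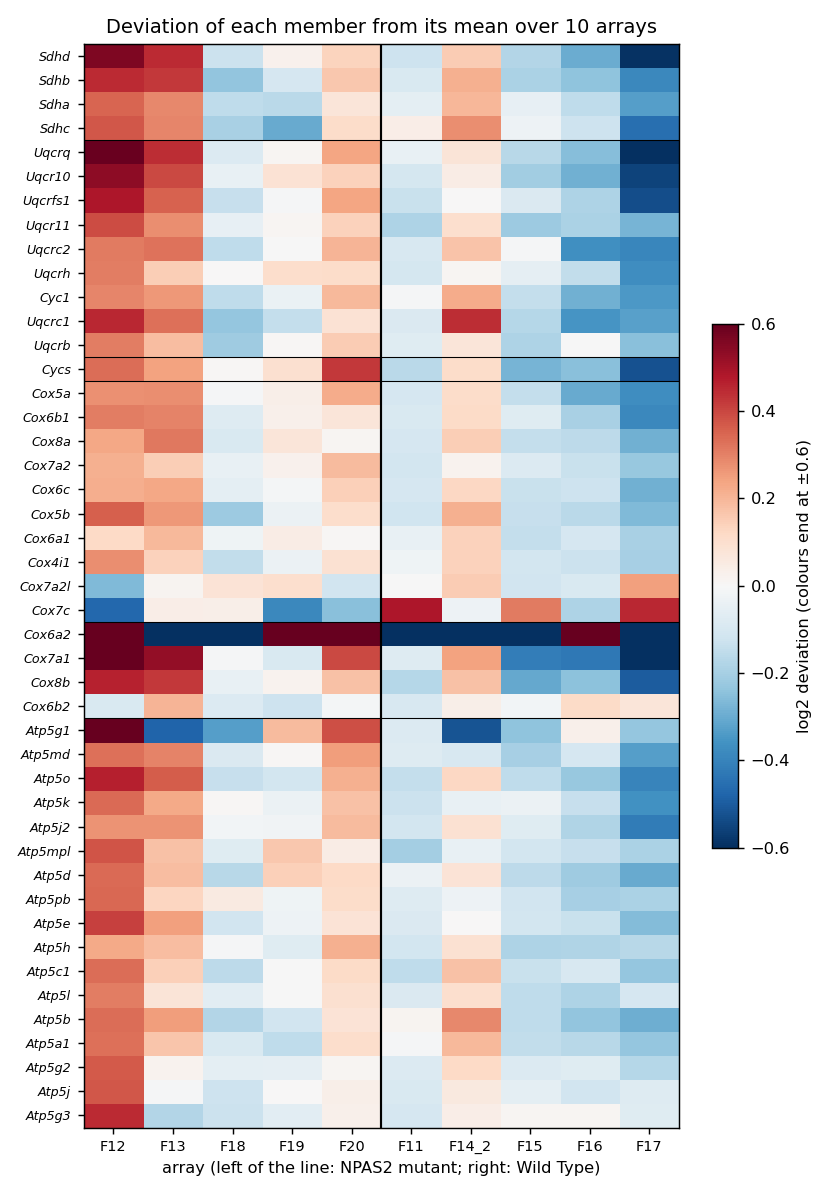
Log2 deviation of each tested member (row) from its mean over the 10 arrays (columns; mutant left of the line, Wild Type right), with colours ending at ±0.6 and horizontal lines between complexes. F12 and F13 are red and F17 blue in most rows, and F14_2 is pale red among the Wild Type. Rows such as Cox6a2, Cox6b2, Atp5g1, Atp5g3, Cox7c and Cox7a2l depart from the pattern.

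The mean level of markers of another tissue differed between the groups. The mean of the brown fat markers, of which 9 of 10 were bright enough to enter (Zic1 was not), was 7.71 to 7.99 on the mutant arrays and 6.87 to 7.41 on the Wild Type arrays, with no overlap. Of the 9, 6 had a higher mutant mean, and none passed the threshold. An unadjusted p below 0.05 with a higher mutant mean was found in 5, against 4.75% of all tested probe sets. The 3 with a lower mutant mean were Prdm16 (-0.27), Lhx8 (-0.11) and Ebf2 (-0.019). Ucp1, which uncouples respiration in brown fat, averaged 12.42 ± 0.29 in mutants and 11.42 ± 0.52 in Wild Type (SD, n = 5 each), and Cidea, another brown fat gene, 12.46 ± 0.25 in mutants and 12.23 ± 0.28 in Wild Type. Elovl3, a fatty acid elongase, had the largest change of the list, with 6.73 ± 0.66 in mutants and 4.15 ± 1.34 in Wild Type. The mean of the other 8 markers, taken after the values were seen, was 8.04, 8.09, 7.86, 7.89 and 8.01 on the mutant arrays and 7.70, 7.70, 7.61, 7.60 and 7.43 on the Wild Type arrays. The groups again did not overlap, and the difference was 0.37, against 0.61 with Elovl3. On both means F18 was lowest of the mutants and F17 of the Wild Type, as in most members, while F12 lay above F13 only with Elovl3. F14_2, the Wild Type array with the highest members, was level with F11 at the top of the Wild Type on the mean of 8 markers and, at 7.22, only above F17 on the mean of 9.

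The mean of the general adipocyte markers, of which 5 of 7 were tested, did not separate the groups. It was 10.06 to 10.51 in mutants and 10.10 to 10.54 in Wild Type. Of the 5, 4 had a higher mutant mean, and Lep a lower one (-0.78, limma adjusted p = 0.155). Lep was the only 1 with an unadjusted p below 0.05, against 10.6% of all tested probe sets in that direction. Smooth muscle markers had lower mutant means in 7 of 7 genes. Of these 4 had an unadjusted p below 0.05, against 10.6% of all tested probe sets in that direction. The mean of the smooth muscle markers was 11.25 to 11.49 in mutants and 11.41 to 11.67 in Wild Type. Cardiac markers, of which 4 of 8 were tested, were at 4.56 to 7.22 in mutants and 4.59 to 6.46 in Wild Type. Endothelial markers were at 5.70 to 5.98 in mutants and 5.54 to 5.87 in Wild Type. Of the 5 endothelial genes 4 had a higher mutant mean, Emcn the most (0.50, limma adjusted p = 0.164). Pecam1 had a lower one (-0.33, limma adjusted p = 0.220). In a bulk sample, fewer cells of a type and less RNA per cell cannot be told apart.

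With the brown fat mean as a covariate in limma, 8 members had a positive and 37 a negative mutant coefficient, with a median of -0.14. An unadjusted p below 0.05 was found in 1, with a positive coefficient, against 2.07% of all tested probe sets in that direction. That mean and the group correlated at 0.897 over the 10 arrays, and the standard errors were larger by a median factor of 2.07, so this fit separates marker level and group poorly. With the mean of the 8 markers other than Elovl3 as the covariate, 4 coefficients were positive and 41 negative, with a median of -0.24, and 14, all negative, had an unadjusted p below 0.05. That mean correlated with the group at 0.892. The standard errors were larger by a median factor of 1.51, so this fit too separates marker level and group poorly. The share of all tested probe sets with a negative coefficient and such a p was not computed, so the 14 have no background beside them. With the skeletal muscle mean as a covariate, 41 coefficients were positive, with a median of 0.21, and 19 had an unadjusted p below 0.05. Of these 18 were positive, against 4.15% of all tested probe sets in that direction. No member passed the adjusted threshold in any of these fits.

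**Figure D4:**
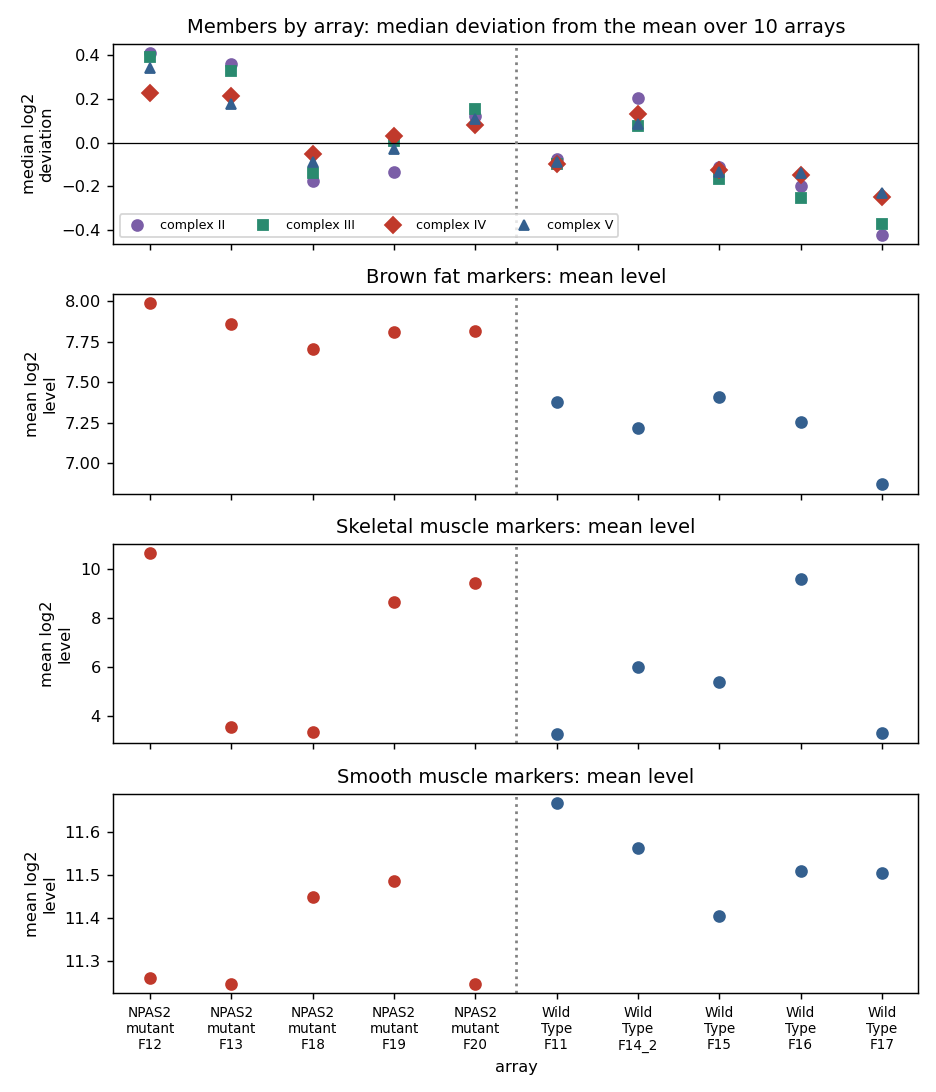
Top, median log2 deviation of the members from their 10-array means by complex on each array; below, mean log2 level of the brown fat, skeletal muscle and smooth muscle markers on the same arrays, mutant left of the dotted line and Wild Type right. The brown fat means do not overlap (7.71 to 7.99 and 6.87 to 7.41), while the members' deviations do, and the skeletal muscle means range over 3.24 to 10.67.

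Genes that serve these complexes were also higher on average in the mutant. Of 37 assembly factors 32 were tested, and 29 had a higher mutant mean, with a median change of 0.21 over the 32. An unadjusted p below 0.05 with a higher mutant mean was found in 14, against 4.75% of all tested probe sets. In 6 all mutant arrays lay above all Wild Type arrays, against 1.5% of all tested probe sets. None passed the threshold. The smallest p values were those of Cox17, a copper carrier for complex IV (0.35, adjusted p = 0.124), Uqcc2, an assembly factor of complex III (0.28, adjusted p = 0.157), Cox11, which inserts copper into complex IV (0.27, adjusted p = 0.158), and Uqcc3, another complex III factor (0.31, adjusted p = 0.164). All 33 tested complex I subunits had a higher mutant mean, with a median change of 0.22. Of these 19 had an unadjusted p below 0.05, against 4.75% of all tested probe sets in that direction.

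Regulators of mitochondrial biogenesis were split. Of the 12 tested, 7 had a higher and 5 a lower mutant mean, with a median change of 0.0088, and none passed the threshold. An unadjusted p below 0.05 was found in 2 with a lower mutant mean, against 10.6% of all tested probe sets. It was found in 1 with a higher mutant mean, against 4.75%. With counts this small, these genes are not read as a result about the list. Pprc1, a coactivator related to PGC-1alpha, had a change of -0.33, and Yy1, a transcription factor, one of -0.17, both with an unadjusted p below 0.05. Esrra, the nuclear receptor that binds the ERR letters above, had a change of 0.32, also with an unadjusted p below 0.05, and Ppargc1b, a coactivator of the PGC-1 family, one of 0.43 with an unadjusted p of 0.0616.

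The other probe sets of the member genes mostly had the same direction. The member genes had 78 tested probe sets, of which 73 had a higher mutant mean. Of these 38 had an unadjusted p below 0.05, against 4.75% of all tested probe sets in that direction, and none of the 78 passed the threshold. Of the 33 tested probe sets that were not chosen, 31 had a higher mutant mean. Among 24 genes with several tested probe sets, 22 had a single sign, and Atp5c1, the gamma shaft of the ATP synthase, and Cox7a2l had both.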

How the data were processed

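The authors deposited log2 expression values, 1 per probe set and array, of total RNA on Affymetrix MOE 430V2 arrays. Both GCRMA and MAS5 appear in the submitters' processing notes, which do not say which of them made the table, and the scale was read from the values. Hybridisation and scan dates were not known, so batches were not examined, and replicate identifiers are each used once, so nothing was paired. The number of arrays limits the precision.

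Of 45101 probe sets 64 controls were left out. The platform annotation, which is old, gave 34945 of the others 1 gene symbol, 932 several and 9160 none, and only those with 1 symbol were named. Symbols were updated by gene ID for 34741 through RefSeq GRCm38.p6, from which the promoter windows came.

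The values were used as deposited. Probe sets above their array's median on at least 5 of 10 arrays (22340) were fitted with limma 3.58.1 (lmFit, eBayes) in R 4.3.3. Tests were two-sided, p values were adjusted by Benjamini-Hochberg over the whole table, and the threshold was 0.05. The fit was tested on simulated data. Isoform pairs were compared by exact permutation tests over all splits of the arrays, in Python 3.11.15. Genes were named in full by a rule: the tissue isoforms with partners, in each complex the 3 tested members of largest change and the one of smallest, catalytic or electron-carrying subunits, and at most 4 genes of smallest p per further list, others being named as single counts required. The members and lists were chosen with earlier results of these data known. Alternatives were no filter or a 75th percentile filter, quantile normalisation, median centring, trend and robust variances, array weights, one-way analysis of variance, leaving out probe sets ending in _x_at or _s_at, averaging probe sets, brown fat or skeletal muscle covariates, a threshold of 0.10 and leaving out each array. A brown fat covariate without Elovl3 was added after the data were seen.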

Additional observations from a re-analysis of the deposited data

Results flagged for a closer look

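Among the 96 groups of 5 arrays (48 members, each in mutants and Wild Type), 4 held an array that stood apart from the other 4 by the Dixon criterion for 5 values, which chance gives in about 1 of 20 groups. Atp5g2, a gene of the rotor ring of complex V, was at 10.25 on mutant F12, against 9.83 to 9.91 on the other mutant arrays. Atp5h, the stalk subunit d of complex V, was at 13.24 on Wild Type F14_2, against 12.96 to 13.04 on the other Wild Type arrays. Uqcr11, a small subunit of complex III, was at 10.71 on Wild Type F14_2, against 10.33 to 10.42. Cox8c, the testis isoform, was at 1.77 on mutant F20, against 1.64 to 1.65, and was too dim to test on every array. The high arrays F12 and F14_2 are those that were highest of their groups in most members.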

How the results depend on the processing

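No member passed the adjusted threshold under any alternative, the threshold of 0.10 and each left-out array included. The count of probe sets passing over the whole table, 48, was 141 with the 75th percentile filter, 17 with no filter, 13 by one-way analysis of variance, 7 with the skeletal muscle covariate, 0 with the brown fat covariate (with or without Elovl3), 191 at a threshold of 0.10, and 9 to 43 with 1 array left out. The count of members with an unadjusted p below 0.05, 23 (22 higher and 1 lower), was 14 to 32 with 1 array left out (14 without F12). With the brown fat covariate it was 1, Cox7a2l, with a coefficient of 0.37, against a change of -0.073 without a covariate. With that covariate without Elovl3 the count was 14, all lower. The count of members higher in the mutant, 42, was 8 with the brown fat covariate and 4 with it without Elovl3. It was 41 to 42 with 1 array left out. The members' median change of 0.24 became -0.14 with the brown fat covariate, -0.24 with it without Elovl3, and 0.19 to 0.30 with 1 array left out. The remaining alternatives kept these counts within 1.5 times.

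Of 24 named genes, 23 had the opposite sign with the brown fat covariate, none past the threshold: Atp5a1 -0.17, Atp5b -0.25, Atp5g1 -0.25, Atp5g3 -0.22, Atp5md -0.029, Atp5o -0.16, Cox4i1 -0.15, Cox6a1 -0.018, Cox6a2 -0.81, Cox6b2 0.056, Cox7a1 -0.20, Cox7a2 -0.011, Cox8a -0.073, Cox8b -0.034, Cyc1 -0.19, Sdha -0.32, Sdhb -0.23, Sdhc -0.56, Sdhd -0.28, Uqcr10 -0.16, Uqcrb -0.14, Uqcrfs1 -0.28 and Uqcrq -0.47. The exception was Cycs. Without Elovl3 in that covariate, an alternative chosen after seeing the data, 21 had the opposite sign, none past the threshold: Atp5a1 -0.39, Atp5b -0.54, Atp5g3 -0.12, Atp5md -0.16, Atp5o -0.41, Cox4i1 -0.30, Cox6a1 -0.17, Cox7a1 -0.60, Cox7a2 -0.091, Cox8a -0.26, Cox8b -0.32, Cyc1 -0.44, Cycs -0.15, Sdha -0.52, Sdhb -0.56, Sdhc -0.81, Sdhd -0.48, Uqcr10 -0.29, Uqcrb -0.30, Uqcrfs1 -0.38 and Uqcrq -0.58. Atp5g3 was also at -0.024 with the skeletal muscle covariate, and ran from -0.063 (without F12) to 0.092 with 1 array left out, and Cox6b2 at 0.0059 after quantile normalisation. Cox8b minus Cox8a lost its call after quantile normalisation (0.16) and with probe sets averaged (0.19), and ran from 0.17 to 0.24 with 1 array left out. Cox7a1 minus Cox7a2 ran from 0.29 to 0.49, and Cox6a2 minus Cox6a1 from 1.06 to 2.79. The cause of these changes was not tested. No paired analysis was possible because the groups share no replicate number. Signal limits Cox7c, whose probe set lay near the median of its arrays, the 3 untested isoforms, which lay below it, and Cox6a2 on 5 of 10 arrays.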
